A study of Mus musculus with 15 samples.

Results

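The 9 genes described here were listed as markers of excitatory neurons of the upper cortical layers and of layer 4: Cux1, Cux2, Rorb, Rasgrf2, Scnn1a, Rspo1, Otof, Lhx2 and Pou3f2. They were taken by gene symbol alone from the 56748 genes of the count table, and all 9 were found there. RNA was sequenced from the cortex of C57BL/6J mice, all wild type and killed 3 h after a single session of magnetic brain stimulation, with 5 libraries in each of 3 groups. The stimulated groups received intermittent theta-burst stimulation (iTBS) or continuous theta-burst stimulation (cTBS), in which magnetic pulses come in bursts repeated at theta rhythm, either with pauses or without, and the third group received sham stimulation. Nothing beyond the protocol was labelled as differing between the groups. The labels gave neither age nor sex, and the dissected area was named somatosensory cortex in the sample titles but sensorimotor cortex in the design text. The design counts 5 animals per group, so each library was taken as 1 animal.

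Neurons of layers 2 and 3 project mainly within the cortex and to the opposite hemisphere, while layer 4 of sensory cortex receives the main input from the thalamus. Cut-homeobox, POU and LIM-homeodomain transcription factors shape the identity of upper-layer neurons during development and several stay expressed in the adult, and the nuclear receptor encoded by Rorb helps layer 4 neurons to gather into clusters around thalamic axons. Magnetic stimulation induces electric fields that are strongest near the brain surface.

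Sequence upstream of the start site was available for 7 of the 9 genes, with 10 start sites in all, from the RefSeq table of mouse build GRCm38.p6. Those of Rspo1, Lhx2 and Pou3f2 are shown because the RNA level of Lhx2 was paired most closely with those of Pou3f2 and Rspo1 across the libraries. Each is the 250 bases before the start site, 5′ to 3′ on the gene's own strand, with CG dinucleotides in capitals. The Rspo1 window is chr4:124986180-124986429 on the plus strand, that of Lhx2 is chr2:38339031-38339280 on the plus strand at the more upstream of 2 listed starts, and that of Pou3f2 is chr4:22488367-22488616 on the minus strand.
Rspo1: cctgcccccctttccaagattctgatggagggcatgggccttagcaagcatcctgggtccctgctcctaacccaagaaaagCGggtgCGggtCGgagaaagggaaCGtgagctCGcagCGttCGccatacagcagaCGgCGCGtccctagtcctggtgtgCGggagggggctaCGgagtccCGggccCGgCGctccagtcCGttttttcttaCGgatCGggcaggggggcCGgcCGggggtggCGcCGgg
Lhx2: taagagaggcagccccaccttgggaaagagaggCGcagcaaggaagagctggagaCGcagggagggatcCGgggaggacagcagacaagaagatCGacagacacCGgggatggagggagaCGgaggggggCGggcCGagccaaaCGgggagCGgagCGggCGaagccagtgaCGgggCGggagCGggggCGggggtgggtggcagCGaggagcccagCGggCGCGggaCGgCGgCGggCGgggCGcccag
Pou3f2: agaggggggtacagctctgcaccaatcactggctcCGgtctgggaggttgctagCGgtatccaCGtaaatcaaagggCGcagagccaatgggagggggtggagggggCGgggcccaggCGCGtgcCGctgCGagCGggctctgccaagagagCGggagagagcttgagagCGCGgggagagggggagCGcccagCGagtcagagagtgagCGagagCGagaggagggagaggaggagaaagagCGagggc
All are rich in CG dinucleotides: 22 in 66.8% GC for Rspo1, 25 in 72.8% GC for Lhx2 and 18 in 66.8% GC for Pou3f2, where the median of all 32851 listed windows was 6 CG dinucleotides and 52.4% GC. Among the other windows, the more upstream Cux2 start had 40 CG dinucleotides in 80.0% GC and the downstream Rorb start had 4 in 39.2% GC. Both strands were searched for the half-site AGGTCA bound by RORB-type nuclear receptors, the homeodomain core TAATTA, the octamer ATGCAAAT of POU factors and the cAMP response element TGACGTCA, no motif containing another. None of the 10 windows held any of them, and of all windows 14%, 4.84%, 1.6% and 1.55% held one, in the order named.

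Total counts ran from 15385070 (iTBS 3) to 47807723 (sham 4) per library, and the biological coefficient of variation was 20.1%. The tissue carried cortical excitatory markers throughout: all 7 on the list were measured, Slc17a7, the vesicular glutamate transporter, lay between 859 CPM (sham 2) and 1443 CPM (sham 4), and the 7 summed to 4172 to 5714 CPM in iTBS, 4325 to 5607 CPM in cTBS and 4134 to 6061 CPM in sham. Markers of neighbouring tissue were also present and differed between libraries. The 12 striatal projection neuron markers summed to 578 to 1698 CPM in iTBS, 541 to 1618 CPM in cTBS and 383 to 1349.8 CPM in sham. None of their defining genes was at 0, and Drd1, the D1 dopamine receptor, ran from 16.3 CPM (sham 3) to 73.2 CPM (cTBS 2). Thalamic markers stood apart in sham 2, with Prkcd at 65.1 CPM against 3.86 to 14.7 CPM elsewhere, and choroid plexus markers in sham 2, sham 5 and cTBS 4. Choroid plexus markers also summed to 82.8 CPM in iTBS 5, where the median of iTBS was 17.1 CPM. The 10 nuclear-retained noncoding RNAs summed to 6135 to 16093 CPM in iTBS, 2789 to 7670.4 CPM in cTBS and 3924 to 16686 CPM in sham.

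All 9 genes were measured in every library and all 9 passed the expression filter. Counts went from 78 to 243 for Scnn1a, 141 to 525 for Rspo1 and 239 to 1344 for Otof up to 3221 to 12461 for Rasgrf2, so counting error weighed most on the first of these. Per kilobase of merged exons, Rasgrf2 was the most abundant, at 24.6 ± 2.74 CPM per kb (SD over the 15 libraries), followed by Cux2 at 19.1 ± 2.26 and Rorb at 15.2 ± 1.46. Lhx2 at 10.6 ± 1.82, Pou3f2 at 9.40 ± 0.943 and Cux1 at 8.69 ± 0.686 CPM per kb formed a middle group. Rspo1 at 4.71 ± 1.08, Otof at 2.65 ± 0.783 and Scnn1a at 1.10 ± 0.216 CPM per kb were the least abundant.

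Most neighbours in this order kept it library by library. Rasgrf2 lay above Cux2, Rorb above Lhx2, Cux1 above Rspo1 and Otof above Scnn1a in 15 of 15 libraries, Cux2 above Rorb in 14 and Rspo1 above Otof in 13. Lhx2 exceeded Pou3f2 in 12 libraries and Pou3f2 exceeded Cux1 in 10, and neither difference was tested. The exon lengths came from GENCODE M21, built on GRCm38, and total RNA also holds intron sequence, so the order rests on those gene models. Merged exons came to 20.024 kb in Cux1 and 1.938 kb in Rspo1, the ends of the range.

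**Figure D1:**
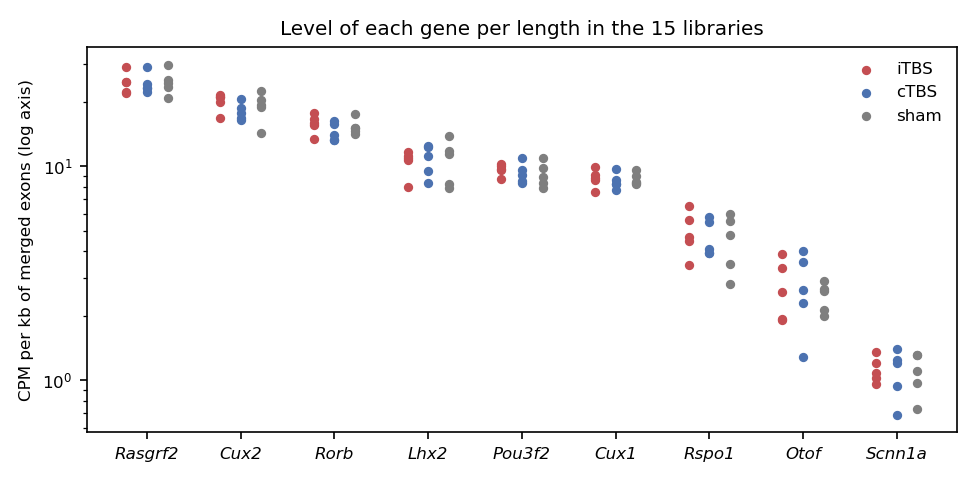
Level of each gene in CPM per kb of merged exons (log axis) in the 15 libraries, iTBS, cTBS and sham side by side from left to right, 1 point per library. Genes run from Rasgrf2 (mean 24.6 CPM per kb) to Scnn1a (1.10 CPM per kb), and the 3 groups of points overlap for every gene.

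The comparison of iTBS with sham asked whether the intermittent protocol shifted these genes 3 h later. Of the 9 genes, 7 lay higher and 2 lower after iTBS, with a median log2 fold change of 0.054, and none passed the test. By edgeR's quasi-likelihood test, 0 of 9 had an adjusted p under 0.05, where 0% of the 22998 genes tested did, and 0 of 9 had an unadjusted p under 0.05, where 1.93% of all genes did. In no gene were the iTBS and sham libraries free of overlap, against 0.452% of all genes, and over all genes 49.5% lay higher and 50.5% lower, with a median of -0.00097. DESeq2, limma-voom with library quality weights (limma-voom below) and limma-trend also called 0 of 9.

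The comparison of cTBS with sham put the same question to the continuous protocol. Here 5 genes lay higher and 4 lower after cTBS, with a median log2 fold change of 0.0083, and again 0 of 9 passed at an adjusted p under 0.05, where 0% of all genes did. None had an unadjusted p under 0.05 either, although 24.4% of all genes did, and none had cTBS and sham libraries without overlap, against 1.34% of all genes. Over all genes 46.5% lay higher and 53.5% lower, with a median of -0.023. DESeq2, limma-voom and limma-trend called 0 of the 9 genes, while over the whole table they called 132, 5461 and 0 genes.

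The protocols were also set against each other. After iTBS 7 genes lay higher than after cTBS and 2 lower, with a median log2 fold change of 0.044. The adjusted p was under 0.05 for 0 of 9 genes, as for 0% of all genes, and the unadjusted p for 0 of 9, where 30.6% of all genes were under 0.05. Groups without overlap occurred in 0 of 9 genes and in 3.92% of all genes, and over all genes 53.9% lay higher and 46.1% lower, with a median of 0.027. The 3 other tools called 0 of 9, while over the whole table DESeq2 called 2618, limma-voom 6853 and limma-trend 0 genes. The comparisons share libraries, iTBS and cTBS being set against the same sham animals. In bulk tissue, fewer cells of a type and less RNA per cell cannot be told apart.

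**Figure D2:**
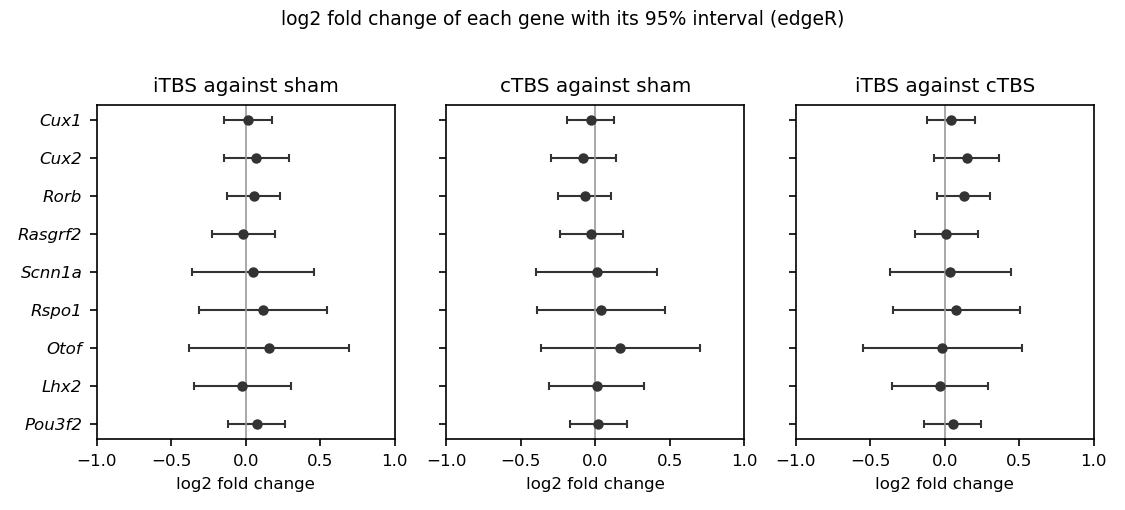
log2 fold change of each gene (points, edgeR) with its 95% interval (bars) for iTBS against sham, cTBS against sham and iTBS against cTBS. All 27 intervals include 0 and stay within a doubling or halving, narrowest for Cux1 and widest for Otof.

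The precision of these comparisons varied with the gene. All 9 intervals (95%) lay within a 2-fold difference in either direction in each of the 3 comparisons. That of Cux1 was the narrowest, at a fold of 0.902 to 1.13 for iTBS against sham, and that of Otof the widest, at 0.766 to 1.62. A p above the threshold does not show that the levels were equal; the intervals give the differences these libraries left possible.

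Among the transcription factors, Cux1 and Cux2 encode cut-homeobox proteins that control dendrite growth and spine formation in upper-layer neurons. Cux1 stood at 177, 152, 199, 173 and 181 CPM in iTBS libraries 1 to 5, 166, 155, 172, 195 and 166 CPM in cTBS libraries 1 to 5, and 169, 165, 167, 192 and 181 CPM in sham libraries 1 to 5. The lowest and the highest of the 15 values were both iTBS libraries, iTBS 2 and iTBS 3, and the groups overlapped. Its means were 176 ± 17.1 CPM in iTBS, 171 ± 14.7 in cTBS and 175 ± 11.6 in sham (SD, n = 5 each), and its log2 fold changes were 0.012 ± 0.076 (SE) with iTBS over sham, -0.032 ± 0.076 with cTBS over sham and 0.044 ± 0.076 with iTBS over cTBS, with adjusted p of 1.00, 0.815 and 0.719 in the same order. The difference for iTBS against sham was 0.851% and that for cTBS against sham -2.20%.

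Cux2, more restricted to layers 2 to 4 than its paralog, was at 216, 169, 201, 212 and 212 CPM in iTBS libraries 1 to 5, 170.2, 179.7, 188, 208 and 166 CPM in cTBS libraries 1 to 5, and 206, 145, 195, 227 and 190.3 CPM in sham libraries 1 to 5. Sham held both the highest library (sham 4) and the lowest (sham 2), and all iTBS libraries but iTBS 2 lay above every cTBS library except cTBS 4. Means were 202 ± 19.2 CPM in iTBS, 182 ± 16.6 in cTBS and 193 ± 30.5 in sham (SD, n = 5 each). The log2 fold changes were 0.069 ± 0.10 (SE) with iTBS over sham, -0.079 ± 0.10 with cTBS over sham and 0.15 ± 0.10 with iTBS over cTBS, and the last was the largest of the 9 genes in that comparison (adjusted p = 0.334, fold interval 0.953 to 1.29). The adjusted p was 1.00 for iTBS against sham and 0.649 for cTBS against sham.

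Rorb, the retinoid-related orphan receptor of layer 4, measured 185, 149, 197, 177 and 173 CPM in iTBS libraries 1 to 5, 155, 147, 176, 181 and 147 CPM in cTBS libraries 1 to 5, and 162, 168, 167, 194 and 157 CPM in sham libraries 1 to 5. The top value was iTBS 3 and the bottom values were cTBS 2 and cTBS 5, yet the groups overlapped. With means of 176 ± 17.8 CPM in iTBS, 161 ± 16.0 in cTBS and 169 ± 14.5 in sham (SD, n = 5 each), the log2 fold changes were 0.054 ± 0.084 (SE) with iTBS over sham, -0.072 ± 0.084 with cTBS over sham and 0.13 ± 0.084 with iTBS over cTBS. Its adjusted p was 1.00, 0.606 and 0.311 in the same order, the values for cTBS against sham and iTBS against cTBS being the smallest of the 9 genes there. Without iTBS 2 the unadjusted p of Rorb for iTBS against cTBS fell under 0.05, as the 1 gene of the 9 to do so, but its adjusted p did not, and 22.6% of all genes had an unadjusted p under 0.05 in that fit.

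Lhx2, a LIM-homeodomain factor that acts in cortical patterning and is also expressed in astrocytes, gave 51.3, 35.3, 48.3, 47.0 and 49.2 CPM in iTBS libraries 1 to 5, 48.9, 36.6, 54.8, 53.9 and 42.0 CPM in cTBS libraries 1 to 5, and 36.5, 34.7, 50.4, 60.8 and 52.1 CPM in sham libraries 1 to 5. Low values occurred in each group, in iTBS 2, cTBS 2, sham 1 and sham 2, and the highest was sham 4. Its means hardly differed, at 46.2 ± 6.31 CPM in iTBS, 47.2 ± 7.85 in cTBS and 46.9 ± 11.1 in sham (SD, n = 5 each), and the log2 fold changes were -0.023 ± 0.15 (SE) with iTBS over sham, 0.0083 ± 0.15 with cTBS over sham and -0.032 ± 0.15 with iTBS over cTBS. No adjusted p was under 0.910, and the fold intervals were 0.786 to 1.23, 0.805 to 1.26 and 0.783 to 1.22.

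Pou3f2 (Brn2), a POU-domain factor of upper-layer neurons that is also present in glia, had 57.5, 49.0, 53.8, 55.8 and 54.1 CPM in iTBS libraries 1 to 5, 51.1, 47.5, 61.4, 53.9 and 46.7 CPM in cTBS libraries 1 to 5, and 46.9, 44.0, 54.9, 61.3 and 49.6 CPM in sham libraries 1 to 5. cTBS 3 and sham 4 were nearly level at the top and sham 2 was lowest, with a narrow spread in iTBS. Means were 54.0 ± 3.19 CPM in iTBS, 52.1 ± 5.93 in cTBS and 51.3 ± 6.86 in sham (SD, n = 5 each), and the log2 fold changes were 0.073 ± 0.090 (SE) with iTBS over sham, 0.020 ± 0.090 with cTBS over sham and 0.053 ± 0.090 with iTBS over cTBS, with adjusted p of 1.00, 0.906 and 0.719 in the same order.

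**Figure D3:**
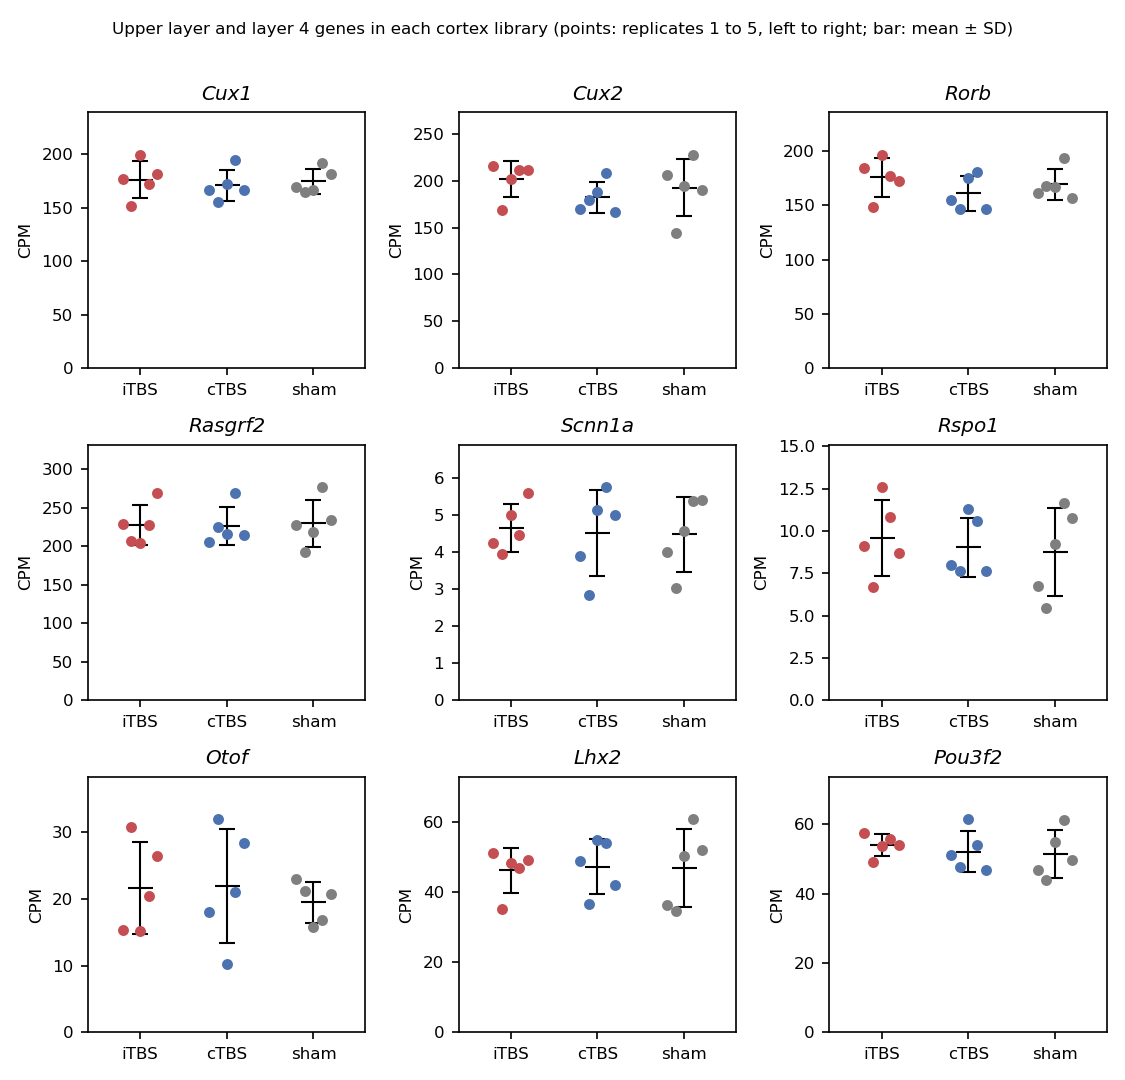
CPM of each of the 9 genes in the 15 libraries (axes start at 0), with iTBS, cTBS and sham from left to right in each panel. Points are replicates 1 to 5 from left to right within a group and bars are mean ± SD (n = 5 each). For every gene the range of each group crosses those of the other groups, as for Cux1 between 152 and 199 CPM.

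Of the signalling genes, Rasgrf2 encodes a calcium-regulated guanine nucleotide exchange factor that activates Ras and Rac downstream of glutamate receptors, and it marks superficial layer neurons. It was found at 229, 206, 204, 228 and 269 CPM in iTBS libraries 1 to 5, 206, 225, 215, 269 and 214 CPM in cTBS libraries 1 to 5, and 228, 192, 218, 276 and 234 CPM in sham libraries 1 to 5. One library of each group stood above its fellows, iTBS 5, cTBS 4 and sham 4, and sham 2 was lowest. The 3 means lay within 2% of each other, at 227 ± 26.1 CPM in iTBS, 226 ± 24.9 in cTBS and 229.7 ± 30.6 in sham (SD, n = 5 each). Log2 fold changes were -0.016 ± 0.10 (SE) with iTBS over sham, -0.025 ± 0.10 with cTBS over sham and 0.0093 ± 0.10 with iTBS over cTBS, with adjusted p of 1.00, 0.893 and 0.961 in the same order.

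Rspo1 encodes R-spondin 1, a secreted protein that strengthens Wnt signalling and is enriched in layer 4. Its level was 9.09, 6.71, 12.6, 10.8 and 8.71 CPM in iTBS libraries 1 to 5, 7.98, 7.65, 11.3, 10.6 and 7.65 CPM in cTBS libraries 1 to 5, and 6.76, 5.45, 9.21, 11.6 and 10.8 CPM in sham libraries 1 to 5. Each group held libraries both low and high, from sham 2 at the bottom to iTBS 3 at the top. Means were 9.59 ± 2.23 CPM in iTBS, 9.03 ± 1.76 in cTBS and 8.77 ± 2.62 in sham (SD, n = 5 each), and the log2 fold changes were 0.12 ± 0.20 (SE) with iTBS over sham, 0.037 ± 0.20 with cTBS over sham and 0.079 ± 0.20 with iTBS over cTBS, with adjusted p of 1.00, 0.924 and 0.821 in the same order.

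The membrane genes Scnn1a and Otof were the least abundant per kilobase. Scnn1a, the alpha subunit of the epithelial sodium channel and a marker of layer 4, measured 4.23, 3.95, 5.00, 4.45 and 5.59 CPM in iTBS libraries 1 to 5, 3.88, 2.84, 5.13, 5.75 and 4.99 CPM in cTBS libraries 1 to 5, and 3.99, 3.02, 4.58, 5.39 and 5.39 CPM in sham libraries 1 to 5. Its lowest libraries were cTBS 2 and sham 2 and its highest was cTBS 4. Means were 4.64 ± 0.651 CPM in iTBS, 4.52 ± 1.15 in cTBS and 4.47 ± 1.01 in sham (SD, n = 5 each), the log2 fold changes were 0.047 ± 0.19 (SE) with iTBS over sham, 0.0095 ± 0.19 with cTBS over sham and 0.037 ± 0.19 with iTBS over cTBS, and the adjusted p was 1.00, 0.980 and 0.916 in the same order.

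Otof encodes otoferlin, the calcium sensor for transmitter release in hair cells, and in the cortex marks part of layer 2/3. It stood at 15.2, 30.6, 15.1, 20.4 and 26.4 CPM in iTBS libraries 1 to 5, 18.1, 31.8, 10.2, 20.9 and 28.3 CPM in cTBS libraries 1 to 5, and 22.9, 21.2, 15.7, 16.8 and 20.7 CPM in sham libraries 1 to 5. The extremes of all 15 libraries were both cTBS, cTBS 3 at the bottom and cTBS 2 at the top, and every sham library fell between the extremes of each stimulated group. Means were 21.6 ± 6.87 CPM in iTBS, 21.9 ± 8.55 in cTBS and 19.4 ± 3.06 in sham (SD, n = 5 each), so the SD was 6.87 in iTBS and 8.55 in cTBS beside 3.06 in sham; that difference in spread was not tested. The log2 fold changes were 0.15 ± 0.25 (SE) with iTBS over sham, 0.17 ± 0.25 with cTBS over sham and -0.015 ± 0.25 with iTBS over cTBS, with adjusted p of 1.00, 0.696 and 0.975 in the same order.

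The deposited variance-stabilized values, which the authors scaled on their own, gave group differences of similar size. They followed log2 CPM across the 15 libraries with r between 0.96 (Cux1) and 0.99 (Otof), a description without a p. On that log2-like scale the mean for iTBS minus sham ran from -0.014 (Rasgrf2) to 0.087 (Rspo1), and for cTBS minus sham from -0.026 (Rorb) to 0.11 (Otof). Cux1 and Rasgrf2 had the opposite sign for cTBS minus sham, at 0.0125 and 0.024, whereas their log2 fold changes from counts were -0.032 and -0.025. Both differences were below the SD between libraries of a group.

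Libraries of a group differed by more than the group means did. Within a group the highest library exceeded the lowest by up to 3.13-fold for Otof (cTBS), 2.14-fold for Rspo1 (sham), 2.02-fold for Scnn1a (cTBS) and 1.75-fold for Lhx2 (sham). Over all 15 libraries the ratio was 2.31-fold for Rspo1 and 1.31-fold to 1.57-fold for the 5 genes not named here. Within iTBS, iTBS 2 was lowest for 7 genes and highest for Otof. In cTBS, cTBS 2 was lowest for 5 genes and highest for Otof, while cTBS 4 was highest for 5. Among sham libraries, sham 2 was lowest for 7 genes and sham 4 highest for 7. Otof therefore ran against the others in the library of each stimulated group that was lowest for most of them. The pattern was not particular to these genes. The summed cortical excitatory markers were also lowest in iTBS 2, cTBS 2 and sham 2 and highest in cTBS 4 and sham 4. Other upper-layer genes, listed below, summed lowest in iTBS 2, cTBS 5 and sham 2 and highest in cTBS 4 and sham 4. Layer 6 and subplate markers instead summed highest in iTBS 2, cTBS 2 and sham 4.

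Over deviations from group means in the 15 libraries, 29 of the 36 pairs of genes had a correlation above 0, with a median r of 0.60. Lhx2 and Pou3f2 were the closest pair (r = 0.88), followed by Lhx2 and Rspo1 (r = 0.87), and Cux1 and Rorb had r = 0.83. Otof had negative correlations with all but Rasgrf2 (r = 0.068), down to -0.76 with Pou3f2. These are descriptions over libraries that share their scaling, so no p is attached.

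**Figure D4:**
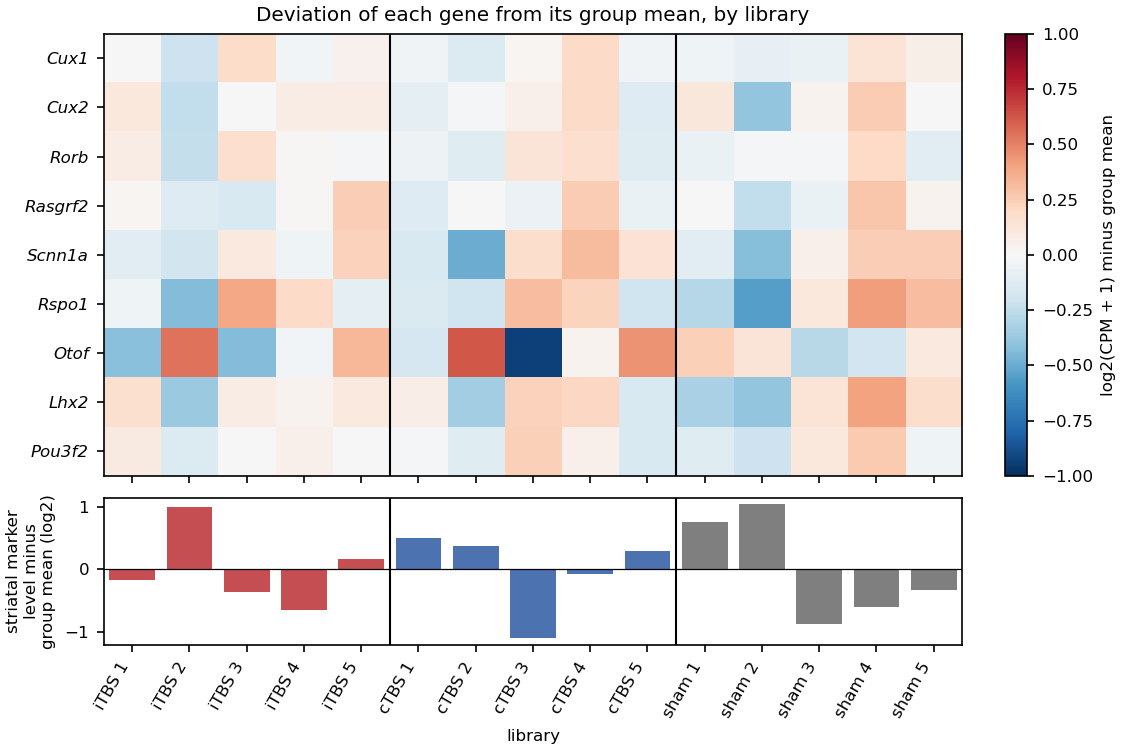
Upper panel: deviation of each gene (rows) from its group mean in each library (columns), as log2(CPM + 1), red above and blue below the mean. Lower panel: the striatal marker level of the same libraries, also as deviation from the group mean (log2). The libraries iTBS 2 and sham 2, where most rows are blue, have the highest bars of their groups. In cTBS the highest bar is that of cTBS 1, which was lowest of its group for 1 gene, while cTBS 2 was lowest for 5.

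For 4 of the 9 genes the variation within groups moved with the level of striatal markers. Whether these markers came from striatal tissue was not tested. The relation was computed for these 9 genes only, so the share of all genes that would pass was not known. The striatal level, the mean of log2(CPM + 1) over the 12 markers, was 5.14 ± 0.64 in iTBS, 5.64 ± 0.65 in cTBS and 4.80 ± 0.85 in sham (SD, n = 5 each), and all 12 markers were higher in cTBS than in sham and in iTBS than in sham, none past the adjusted threshold. Deviations from group means were compared over the 15 libraries for 27 relations, 9 genes against 3 levels, with permutation p-values from 100000 resamples within groups. Rspo1 fell as the striatal level rose, with Pearson r = -0.88 (permutation p = 0.00031, adjusted p = 0.00648) and Spearman rho = -0.85 (permutation p = 0.00098). Pou3f2 had r = -0.85 (permutation p = 0.00048, adjusted p = 0.00648) and rho = -0.83 (permutation p = 0.00102). For Lhx2, r was -0.81 (permutation p = 0.00258, adjusted p = 0.0174) and rho -0.76 (permutation p = 0.00449).

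Otof was the 1 gene that rose with the striatal level, at r = 0.72 (permutation p = 0.00209, adjusted p = 0.0174) and rho = 0.73 (permutation p = 0.00277). The 2 libraries whose deviation of the striatal level from the group mean lay farthest from the median deviation were iTBS 2 and sham 2. With both left out, r was -0.79 for Rspo1, -0.79 for Pou3f2, -0.68 for Lhx2 and 0.72 for Otof. Their permutation p-values were then 0.00541, 0.00822, 0.0542 and 0.0108 and their adjusted p 0.0971, 0.0971, 0.366 and 0.0971. None of the 4 passed the adjusted threshold over these 13 libraries, while r was nearly the same for Otof and smaller for the others. Sham 2 also stood apart in thalamic and choroid plexus markers, and the part of that RNA in its values was not tested. The other 5 genes had r between -0.63 (Cux2) and -0.32 (Rasgrf2), none past the adjusted threshold. No relation with the layer 6 and subplate level passed either.

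**Figure D5:**
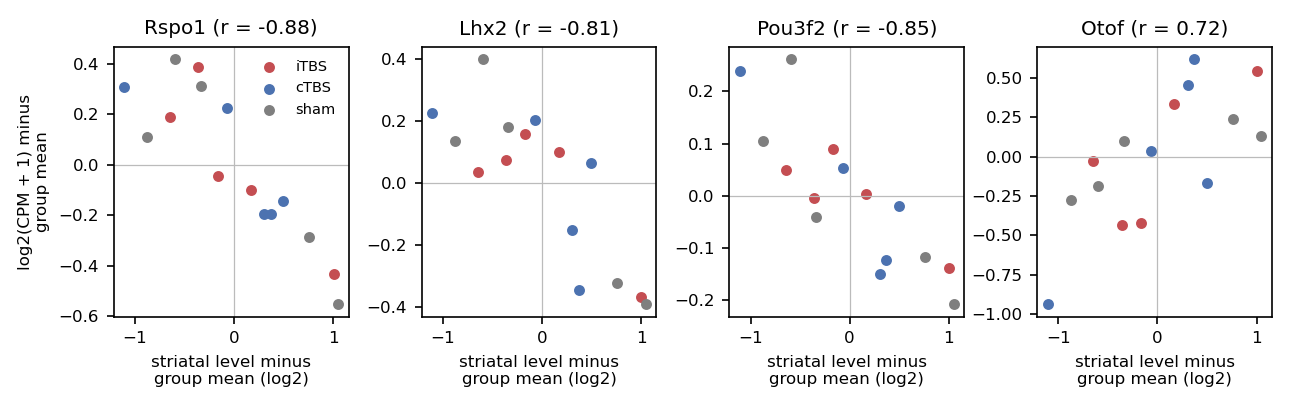
Deviation of Rspo1, Lhx2, Pou3f2 and Otof from their group means, log2(CPM + 1), against the deviation of the striatal marker level (log2), 1 point per library, iTBS, cTBS and sham in separate colours. Rspo1, Lhx2 and Pou3f2 slope down (r = -0.88, -0.81 and -0.85) and Otof slopes up (r = 0.72).

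Fitted with the striatal level as a covariate, the log2 fold changes over sham of Rspo1, Lhx2 and Pou3f2 were higher than without it, and none reached the adjusted threshold. For cTBS against sham the log2 fold change was 0.45 ± 0.13 for Rspo1 (unadjusted p = 0.00325, adjusted p = 0.130), 0.29 ± 0.11 for Lhx2 (unadjusted p = 0.0197, adjusted p = 0.138) and 0.17 ± 0.065 for Pou3f2 (unadjusted p = 0.0174, adjusted p = 0.135) in edgeR's test, where 26.5% of all genes had an unadjusted p under 0.05. For iTBS against sham Rspo1 was at 0.29 ± 0.12 and Pou3f2 at 0.14 ± 0.059, each with an unadjusted p under 0.05, as for 2.85% of all genes, and an adjusted p of 1.00. Otof, which lay above sham after both protocols without the covariate, was then at -0.27 ± 0.22 with cTBS over sham and -0.036 ± 0.20 with iTBS over sham. Since the striatal level itself differed between the group means, the protocol and the striatal level cannot be fully told apart in this fit. The values also depended on the covariates. With the level of nuclear-retained noncoding RNAs added, cTBS against sham was 0.30 ± 0.13 for Rspo1, 0.053 ± 0.071 for Lhx2 and 0.079 ± 0.063 for Pou3f2. Their adjusted p in edgeR's test was 0.856, 0.937 and 0.882.

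The nuclear-retained noncoding RNAs had a level of 7.98 ± 0.53 in iTBS, 7.04 ± 0.57 in cTBS and 7.91 ± 0.71 in sham (mean log2(CPM + 1), SD, n = 5 each). All 10 lay lower in cTBS than in sham with an unadjusted p under 0.05, where 24.4% of all genes had one, and none passed the adjusted threshold. Within groups, Rasgrf2 (r = -0.68), Lhx2 (r = -0.64) and Cux1 (r = -0.62) had the strongest negative relations with this level, each with an adjusted permutation p of 0.0780. Their unadjusted permutation p-values were 0.0154, 0.0216 and 0.0179, and Spearman rho was -0.59, -0.58 and -0.67 (permutation p = 0.0405, 0.0465 and 0.0145). The deviations of this level from the group mean lay farthest from the median deviation in cTBS 4 and sham 4. Leaving out both, r was -0.31, -0.43 and -0.35. With that level as a covariate, iTBS against cTBS gave log2 fold changes of 0.29 ± 0.11 for Cux2 (unadjusted p = 0.0148, adjusted p = 0.562) and 0.25 ± 0.084 for Rorb (unadjusted p = 0.00779, adjusted p = 0.542). Cux1 at 0.16 ± 0.075 and Rasgrf2 at 0.19 ± 0.089 also had unadjusted p under 0.05 there, as did 7.81% of all genes in that fit, with adjusted p of 0.631 and 0.639. For cTBS against sham, Rorb was at -0.19 ± 0.081 and Rasgrf2 at -0.19 ± 0.086, with adjusted p of 0.837 for each, and 5.9% of all genes had an unadjusted p under 0.05.

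Cux1, Cux2, Rorb and Rasgrf2 are the longest gene models of the 9, spanning 319 kb, 194 kb, 181 kb and 251 kb with introns, while Pou3f2 spans 5.59 kb and has none. Over 28 alternative settings of the analysis, 0 of the 9 genes passed the adjusted threshold in any comparison. The smallest adjusted p among them was 0.728 with iTBS over sham (Pou3f2), 0.130 with cTBS over sham (Rspo1) and 0.160 with iTBS over cTBS (Rorb).

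Other genes of the same neurons were read from lists chosen for these layers. Of 12 other upper-layer genes, all tested, 0 passed the adjusted threshold in any comparison. Their median log2 fold change was 0.0017 with iTBS over sham (6 higher, 6 lower), 0.072 with cTBS over sham (9 higher, 3 lower) and -0.021 with iTBS over cTBS (5 higher, 7 lower). Of 11 other layer 4 genes, all tested, 0 passed as well, with medians of 0.035 (7 higher, 4 lower), 0.015 (6 higher, 5 lower) and -0.096 (5 higher, 6 lower) in the same comparisons. Astrocytes also express Lhx2 and Pou3f2. The 10 astrocyte markers, of which 10 lay higher in cTBS than in sham and 4 higher in iTBS than in sham, summed to 4655 to 7278 CPM in iTBS, 4898 to 7080.1 CPM in cTBS and 5119 to 6453 CPM in sham. They had a level of 7.25 ± 0.17 in iTBS, 7.42 ± 0.12 in cTBS and 7.27 ± 0.11 in sham (mean log2(CPM + 1), SD, n = 5 each); their part in the levels of the 2 genes was not tested.

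Of these 23 genes, 2 had an unadjusted p under 0.05 for iTBS against sham, where 1.93% of all genes did. Nectin3, a cell adhesion molecule, was at 45.2 ± 4.90 CPM in iTBS and 38.6 ± 2.65 CPM in sham (log2 fold change 0.23 ± 0.074, SE, unadjusted p = 0.00610, adjusted p = 1.00). Endou, an endoribonuclease gene of layer 4, was at 2.26 ± 0.607 CPM in iTBS and 3.06 ± 0.393 CPM in sham (log2 fold change -0.43 ± 0.20, unadjusted p = 0.0420, adjusted p = 1.00). The value of Endou was -0.28 without iTBS 1 and ran from -0.53 to -0.18 over 28 alternative settings, and that of Nectin3 from 0.17 to 0.27. For cTBS against sham 2 of the 23 had an unadjusted p under 0.05, a smaller share than the 24.4% of all genes. Calb1, the calcium-binding protein calbindin of layer 2/3, was at 130.3 ± 10.8 CPM in cTBS and 112 ± 9.06 CPM in sham (log2 fold change 0.22 ± 0.082, adjusted p = 0.148). Adam33, a metalloprotease gene, was at 3.11 ± 1.55 CPM in cTBS and 5.66 ± 3.00 CPM in sham (log2 fold change -0.85 ± 0.39, adjusted p = 0.197).

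For iTBS against cTBS it was 3 of the 23, again a smaller share than the 30.6% of all genes. Cartpt, which encodes the CART neuropeptide, was at 3.89 ± 0.321 CPM in iTBS and 5.61 ± 1.62 CPM in cTBS (log2 fold change -0.53 ± 0.16, adjusted p = 0.0838). Calb1 was at 110.2 ± 12.3 CPM in iTBS and 130.3 ± 10.8 CPM in cTBS (log2 fold change -0.24 ± 0.082, adjusted p = 0.0892) and Adam33 at 5.99 ± 2.18 CPM in iTBS and 3.11 ± 1.55 CPM in cTBS (log2 fold change 0.94 ± 0.39, adjusted p = 0.126). Calb1 passed the adjusted threshold for cTBS against sham in 2 of 28 alternative settings, with limma-voom and without sham 4, which called 23.7% and 24.4% of all genes, over an adjusted p range of 0.0292 to 0.987. For iTBS against cTBS it passed in 5 (range 0.0174 to 0.915), Cartpt in 4 (0.0291 to 0.761) and Adam33 in 1 (0.0305 to 0.998), all of them settings that called 11.4% to 29.8% of all genes. Pou3f1, named after its values were seen, passed with cTBS over sham in the same 2 settings as Calb1 and with iTBS over cTBS in 1, limma-voom. In a fit that held nuclear RNA as a term, the log2 fold change of Adam33 was 0.068 with cTBS over sham and -0.011 with iTBS over cTBS.

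Genes most like each of the 9 across the 15 libraries were sought among 11874 others with a mean of at least 5 CPM, by Pearson r of deviations from group means. They were Gm37176 and Hecw1 for Cux1 (r = 0.95 and 0.94), Rexo1 and Serpinb8 for Cux2 (0.93 and 0.92), and Mrps21 and Rims3 for Rorb (0.92 each). Rasgrf2 was most like Snap91 and Cacng3 (0.95 each), Scnn1a like 9330121K16Rik and Tcf4 (0.92 each), and Rspo1 like Ankrd9 and Trhde (0.95 and 0.93). For Otof they were Ttc39c and Ankfn1 (0.96 each), for Lhx2 Bhlhe22 and Dtx4 (0.97 and 0.96), and for Pou3f2 Poldip2 and Gm6206 (0.95 and 0.94). None of these 18 is among the 23 other layer genes, and with so many candidates high values of r over 15 libraries are a description.

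Reads of overlapping genes could enter some of these counts, since no source used here states whether strand was used in counting. In GENCODE M21, opposite-strand gene models overlap Cux1 (Gm16599), Cux2 (Gm3970 and Gm15637), Rspo1 (Gm12930) and Lhx2 (Gm27197 and Gm13584), and 3 same-strand models overlap Cux1. No model overlaps Rorb, Rasgrf2, Scnn1a, Otof or Pou3f2.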

How the data were processed

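The authors deposited raw counts per Ensembl gene and their variance-stabilized form, which is close to log2. An RNeasy Mini Kit gave the RNA, and stranded total RNA libraries followed ribosomal RNA depletion, per the labels' protocols. The submitters' processing notes name fastp, STAR, DESeq2 and build GRCm39 (mm39). Their versions and roles, the read counter, the annotation and the strand setting were not given in any source used. Total RNA holds unspliced transcripts, so counts can reflect nuclear RNA.

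Of 56748 identifiers, 52073 (97.7% of counts) took a symbol from GENCODE M21 (GRCm38), which also gave exon lengths. The main test was edgeR 4.0.16 (quasi-likelihood F, TMM scaling, filterByExpr, R 4.3.3) on all 15 libraries; the filter kept 22998 of 45315 genes and 99.9% of counts. P-values were adjusted by Benjamini-Hochberg over all tested genes, at a threshold of 0.05. CPM used TMM-scaled totals, and levels were log2(CPM + 1). Alternatives used DESeq2 1.42.0, limma 3.58.1 (limma-voom with library quality weights, and limma-trend), other scalings, filters and covariates, a replicate block and left-out libraries. The test was tried on simulated data.

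The members, lists and tests were chosen with earlier results of these data known. All members were named, with the other layer genes at unadjusted p under 0.05 and the 2 genes most like each member. Of 130 other list symbols all were matched. Depth ranged from 15385070 to 47807723 counts.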

Additional observations from a re-analysis of the deposited data

Results flagged for a closer look

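In 45 sets of 5 libraries (the 9 genes and 6 marker levels in each group), 4 had a library far from the other 4 of its group. Chance alone gives about 1 in 20 for independent sets of normal values. These sets share their libraries and the shape of their values was not tested, so that rate is only a rough guide. Lhx2 in iTBS 2 was the lowest of its group, at 35.3 CPM. The layer 6 and subplate level in iTBS 4 was the lowest of iTBS, at 3.96. The thalamic level in sham 2 was the highest of sham, at 4.78. The choroid plexus level in cTBS 4 was the highest of cTBS, at 2.82.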

How the results depend on the processing

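In each comparison 0 of the 9 genes passed the adjusted threshold under all 28 alternatives, leaving out any 1 library included. Counts of calls over the whole table did depend on the tool and on single libraries: for cTBS against sham edgeR called 0 genes in all 15 libraries but 5726 without sham 4, and for iTBS against cTBS 4474 without iTBS 1, 3380 without cTBS 5 and 3637 without sham 4. The count of relations past the threshold was 4, with 6 under DESeq2 size factors and 0 without the 2 libraries whose deviation from the group mean lay farthest from the median deviation. The members' fold changes were small, and many turned sign under some alternative. The cause was not tested. The DESeq2 Wald test gave 0.0048 for Rasgrf2 (cTBS against sham), -0.019 for Rasgrf2 (iTBS against cTBS). DESeq2 size factors gave 0.0048 for Rasgrf2 (cTBS against sham), -0.019 for Rasgrf2 (iTBS against cTBS). Library number as a covariate gave 0.035 for Rasgrf2 and 0.060 for Lhx2 (iTBS against sham), 0.00086 for Rasgrf2 (cTBS against sham), 0.00073 for Lhx2 (iTBS against cTBS). Limma-trend on the deposited values gave 0.012 for Cux1 and 0.024 for Rasgrf2 (cTBS against sham), -0.0033 for Cux1 and -0.038 for Rasgrf2 (iTBS against cTBS). Limma-voom gave 0.0019 for Rasgrf2 and 0.072 for Lhx2 (iTBS against sham), -0.031 for Scnn1a and -0.030 for Otof (cTBS against sham), 0.10 for Otof (iTBS against cTBS). Without a filter on low counts the values were 0.027 for Cux1 and 0.032 for Rasgrf2 (cTBS against sham), -0.015 for Cux1, -0.048 for Rasgrf2, -0.021 for Scnn1a and -0.0077 for Pou3f2 (iTBS against cTBS). Nuclear RNA and striatal levels together as covariates gave 0.018 for Rasgrf2, -0.036 for Otof and 0.11 for Lhx2 (iTBS against sham), -0.15 for Otof and 0.37 for Adam33 (cTBS against sham), -0.0065 for Rspo1, 0.12 for Otof, 0.059 for Lhx2 and -0.20 for Adam33 (iTBS against cTBS). Nuclear RNA level alone gave 0.00035 for Rasgrf2 and 0.0059 for Lhx2 (iTBS against sham), -0.18 for Scnn1a, -0.14 for Rspo1, -0.23 for Lhx2, -0.085 for Pou3f2 and 0.068 for Adam33 (cTBS against sham), 0.23 for Lhx2 and -0.011 for Adam33 (iTBS against cTBS). A fit of the compared groups alone gave -0.0051 for Rasgrf2 (iTBS against cTBS). The replicate block gave 0.0097 for Otof (iTBS against cTBS). Striatal level alone gave 0.013 for Rasgrf2, -0.036 for Otof and 0.10 for Lhx2 (iTBS against sham), 0.040 for Cux1, 0.054 for Cux2, 0.021 for Rorb, 0.042 for Rasgrf2 and -0.27 for Otof (cTBS against sham), -0.029 for Rasgrf2, -0.084 for Scnn1a, -0.16 for Rspo1, 0.24 for Otof and -0.032 for Pou3f2 (iTBS against cTBS). Leaving out sham 2, sham 5 and cTBS 4, the libraries with the highest choroid plexus levels, gave -0.042 for Cux2, -0.0015 for Scnn1a and -0.0013 for Pou3f2 (iTBS against sham), -0.10 for Scnn1a, -0.045 for Rspo1, -0.060 for Lhx2 and -0.019 for Pou3f2 (cTBS against sham). That fit kept iTBS 5, where these markers summed to 82.8 CPM. The values for Adam33 come from alternatives chosen after seeing the data. Leaving out 1 library at a time, log2 fold changes ranged, for iTBS against sham Cux1 -0.034 to 0.062, Cux2 -0.018 to 0.15, Lhx2 -0.11 to 0.11, Otof -0.0062 to 0.26, Rasgrf2 -0.089 to 0.075, Rspo1 -0.015 to 0.26, Scnn1a -0.065 to 0.14, for cTBS against sham Cux1 -0.049 to 0.054, Cux2 -0.16 to 0.039, Lhx2 -0.080 to 0.17, Otof -0.0017 to 0.39, Pou3f2 -0.027 to 0.15, Rasgrf2 -0.080 to 0.10, Rorb -0.095 to 0.032, Rspo1 -0.090 to 0.22, Scnn1a -0.10 to 0.14, for iTBS against cTBS Cux1 -0.0073 to 0.092, Lhx2 -0.12 to 0.051, Otof -0.23 to 0.16, Pou3f2 -0.022 to 0.086, Rasgrf2 -0.10 to 0.045, Rspo1 -0.032 to 0.18, Scnn1a -0.095 to 0.092. Pearson r with the layer 6 and subplate level turned to 0.064 for Rorb with DESeq2 size factors, and without the 2 farthest libraries to 0.26 for Rorb, 0.014 for Scnn1a, 0.41 for Rspo1, -0.11 for Otof and 0.45 for Pou3f2, while r of Rasgrf2 with the striatal level turned to 0.026. No label tied same-numbered libraries to each other. They did not all deviate together (r from -0.63 to 0.71) or all correlate best with their own number, which cannot tell whether they shared a session. The replicate block called 0 of the 9 genes in each comparison, with 0, 0 and 5 genes over the whole table. Depth limits Scnn1a most, at 78 to 243 counts a library.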
